A study of Mus musculus with 8 samples.

Results

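The lysosomal enzymes and membrane proteins described here are 29 genes: 9 proteases, 6 glycosidases, 7 lipid enzymes, lipid transfer proteins and activator proteins, and 7 proteins of the lysosomal membrane. They were taken by gene symbol from the 19938 genes measured, and all 29 were found, each with a single probe set. Of the 29, 26 carry a lysosomal cellular component term in the authors' deposited annotation, and Grn, Laptm4a and Atp6ap1 do not. The study asked how transcripts differ when PML (promyelocytic leukaemia protein), which organises a class of nuclear bodies, is depleted in mouse embryonic stem cells (ESCs) before and during differentiation. RNA was hybridised to Affymetrix mouse gene arrays, 2 for each of 4 groups.

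The groups are PML KD EBs D4, WT EBs D4, PML KD ESC D0 and WT ESC D0. All come from CGR8, a feeder-independent mouse ESC line that the labels list with donor strain 129P2/OlaHsd and background strain C57BL/6, at passages 5 to 13. ESCs at day 0 grew with 100 U/ml leukaemia inhibitory factor (LIF) and 15% serum. Embryoid bodies (EBs), aggregates in which ESCs differentiate, were grown without LIF in 20% serum and taken at day 4. The knockdown (KD) cells stably express a short hairpin RNA against PML from a lentiviral vector and were selected with puromycin. The protocol speaks of empty-vector virus too, but the sources used here do not tell whether the cells labelled WT received it. The labels give neither the number of clones in the KD line nor the origin of a group's arrays in independent cultures. A p-value here reflects the variation among these arrays alone, which can be technical.

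Lysosomes are acidic organelles in which hydrolases break down proteins, glycans and lipids delivered by endocytosis and autophagy. Their enzymes reach them mostly through mannose 6-phosphate receptors, and the transcription factors TFEB, TFE3 and MITF are known to activate many lysosomal genes. The visceral endoderm, the outer layer of an EB and of the early mouse embryo, takes up nutrients by endocytosis and is rich in lysosomes.

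Signals are on the log2 scale of the deposited intensities, and each difference is given with the standard error (SE) of a limma fit over all 8 arrays, n = 2 arrays per group. Changed, higher, lower, rose and fell are used of genes with an adjusted p under 0.05 over all 19938 genes. Within groups the arrays correlated at 0.9955 to 0.9971, and the single-array SD over the 29 genes was 0.047 to 0.097. Pml itself, the hairpin's target, was at 10.54 and 10.69 in PML KD EBs, against 10.88 and 10.84 in WT EBs (-0.24 ± 0.08, adjusted p = 0.0451), and at 11.10 and 11.07 in PML KD ESCs, against 11.70 and 11.68 in WT ESCs (-0.60 ± 0.08, adjusted p = 0.000317). Both PML KD day 0 arrays stood apart from the other 6 in the Y-linked transcripts Eif2s3y and Uty. Eif2s3y was at 5.20 and 4.95 there and at 9.86 to 10.20 elsewhere, and Uty at 5.40 and 5.77, against 9.03 to 9.38. Kdm5d, also Y-linked, was low on all arrays (5.42 to 5.85) and did not pass at day 0. Bright genes of chromosomes 8 and 14 were also shifted in the day 0 comparison, by 0.26 and 0.18 relative to other chromosomes. On these chromosomes lie 5 of the lysosomal genes (Man2b1, Asah1, Lamp1 and Mcoln1 on 8, Ctsb on 14), and PML depletion cannot be told apart from other differences of these day 0 cultures. The mean of the 29 genes was 11.17 and 11.16 in PML KD EBs, 11.40 and 11.43 in WT EBs, 10.70 and 10.78 in PML KD ESCs, and 10.37 and 10.39 in WT ESCs. This mean thus stood below WT in PML KD at day 4 and above it at day 0, with no overlap of arrays at either time. The roles differed at day 4. Protease means were 11.63 and 11.62 in PML KD EBs, against 12.44 and 12.46 in WT EBs, and glycosidase means 10.15 and 10.12, against 10.22 and 10.29. Lipid group means stood above WT (11.25 and 11.28, against 11.15 and 11.20), as did membrane protein means (11.39 and 11.36, against 11.31 and 11.31).

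**Figure D1:**
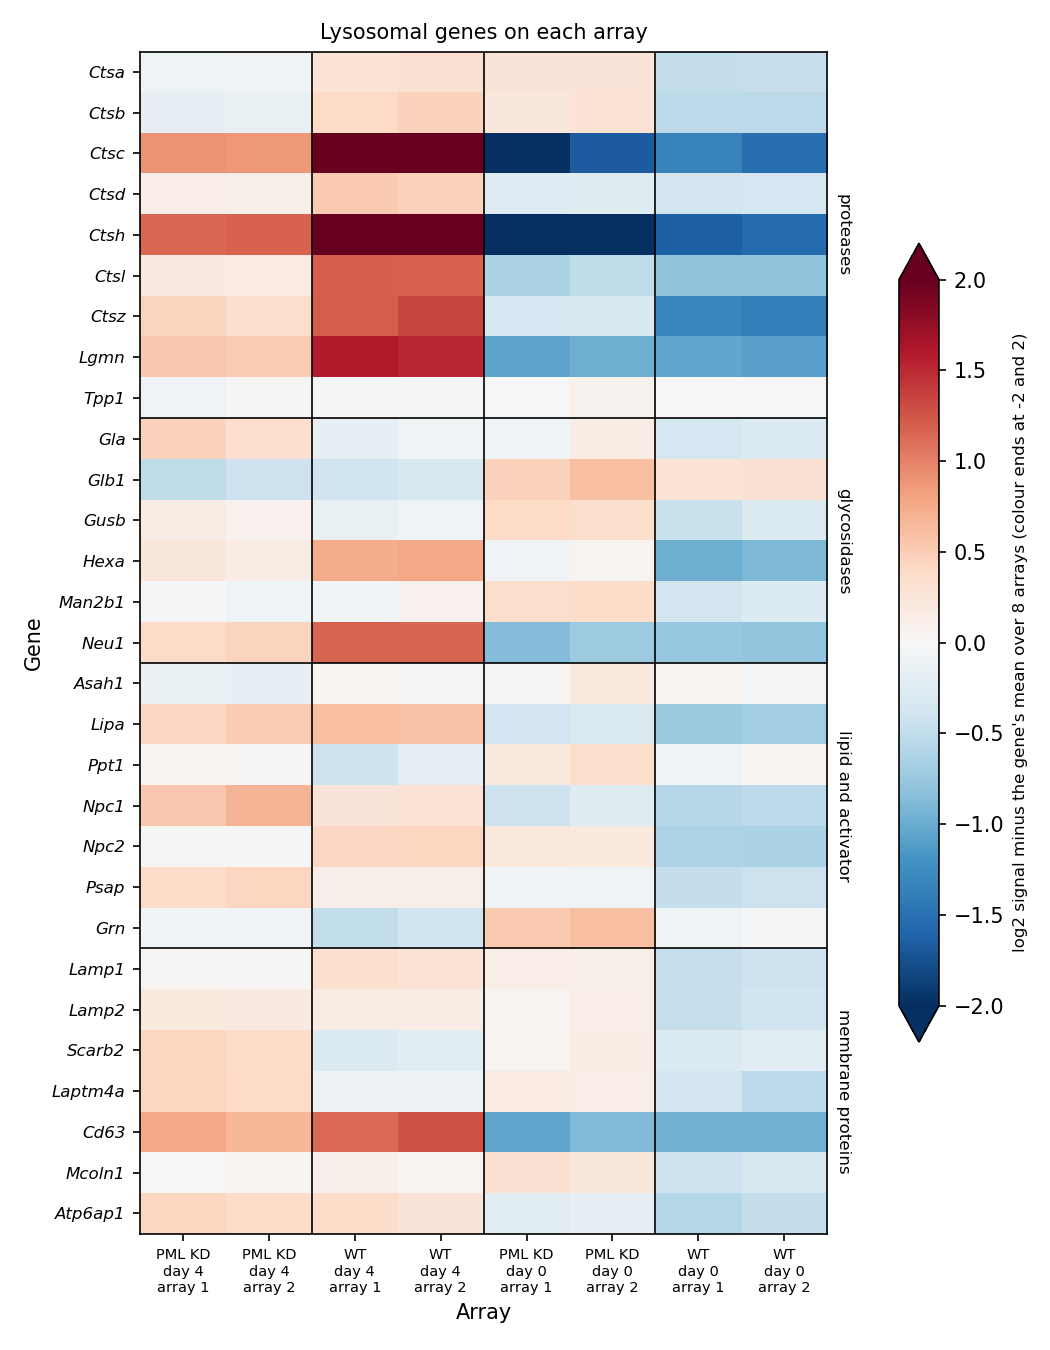
Signal of the 29 lysosomal genes (down the page, by role) on each of the 8 arrays (columns), as log2 signal minus the gene's mean over the arrays, with the colour scale ending at -2 and 2. The arrays of a group look alike, and Ctsh and Ctsc are highest in WT EBs and lowest in PML KD ESCs.

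The promoters were searched for the E-box that TFEB and its relatives are known to bind. RefSeq's table (build GRCm38.p6, 250 bases before to 50 bases after a start) held promoters of 25 of the 29 genes, and those of Ctsb, Ctsh, Asah1 and Npc1 were not used here. The hexamer CACGTG, which reads the same on both strands, occurred in 8 of the 25 genes (32.0%). They were Ctsa, Ctsd, Ctsl, Lgmn, Gla, Glb1, Lamp1 and Mcoln1. It occurred in 9.5% of 15614 tested genes with a promoter in the table. Counted by promoter it was in 8 of 28 (28.6%), against 7.15% of all 32851 promoters. Ctsa and Lgmn each have another promoter without it. The longer palindrome TCACGTGA, which contains the hexamer, occurred in 4 of 25 genes (16.0%: Ctsa, Ctsd, Gla and Mcoln1), against 1.52% of the tested genes. TCACGTGA with a G before and a C after it, the fuller consensus, occurred in 0 of 25 and in 0.525% of the tested genes. By role the hexamer was in 4 of 7 proteases, 2 of 6 glycosidases, 0 of 5 lipid and activator genes and 2 of 7 membrane protein genes. Stretches of these promoters are shown here to set genes with several hexamers beside Ctsz, a protease gene with none; capitals mark CACGTG. They are Lamp1 at chr8:13159061-13159160 (plus strand, 4 hexamers in 100 bases), Mcoln1 at chr8:3500419-3500518 (plus strand, 2 in 100 bases), Ctsd at chr7:142387918-142388077 (minus strand, 2 in 160 bases), Gla at chrX:134601176-134601255 (minus strand, 2 in 80 bases) and Ctsz at chr2:174439040-174439139 (minus strand). Those of Lamp1, Mcoln1 and Ctsz end at the base before the start, and those of Ctsd and Gla begin 250 bases before it and end 91 and 171 bases before it.
Lamp1: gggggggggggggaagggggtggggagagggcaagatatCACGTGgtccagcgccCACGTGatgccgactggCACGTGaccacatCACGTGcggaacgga
Mcoln1: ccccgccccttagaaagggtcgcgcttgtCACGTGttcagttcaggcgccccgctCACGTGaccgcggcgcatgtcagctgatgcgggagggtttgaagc
Ctsd: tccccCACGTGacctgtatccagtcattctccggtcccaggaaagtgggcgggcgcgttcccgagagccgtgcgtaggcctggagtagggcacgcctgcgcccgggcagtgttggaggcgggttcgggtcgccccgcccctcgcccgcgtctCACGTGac
Gla: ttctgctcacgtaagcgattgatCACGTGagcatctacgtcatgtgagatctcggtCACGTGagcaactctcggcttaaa
Ctsz: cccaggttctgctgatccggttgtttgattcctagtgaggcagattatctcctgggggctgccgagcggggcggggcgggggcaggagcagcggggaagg
A match describes letters in these windows only. At day 4 the 8 genes with a hexamer did not move as one: Ctsa, Ctsd, Ctsl, Lgmn and Lamp1 were lower in PML KD, Gla was higher, and Glb1 and Mcoln1 did not pass.

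The day 4 comparison asked how EBs of PML-depleted cells differ from WT EBs. Lysosomal proteases were lower in PML KD EBs: 8 of 9 fell, with a median of -0.88 over the 9. The other roles were mixed, with 7 rises and 5 falls among the 20 genes. Over all 29 genes 7 were higher, 13 lower and 9 not past the threshold, where 28.6% of all genes tested passed, 16.8% higher and 11.8% lower. The median of the 29 was -0.14, against -0.02 over all genes and 0.12 over the brightest 20% of genes. Both PML KD arrays lay below both WT arrays for 16 of the 29 genes and above them for 9, where 33.5% and 31.8% of all genes did. In whole EBs fewer cells of a type and less RNA per cell cannot be told apart.

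Among the proteases, Ctsh, an aminopeptidase of the cathepsin family, was at 9.79 and 9.83 in PML KD EBs, against 11.38 and 11.47 in WT EBs (-1.62 ± 0.09, adjusted p = 2.52e-05). Ctsc, the dipeptidyl peptidase that activates serine proteases of immune cells, was at 11.22 and 11.18 in PML KD EBs, against 12.74 and 12.74 in WT EBs (-1.54 ± 0.14, adjusted p = 0.000155). Both arrays of PML KD EBs lay far below both of WT EBs, and the PML KD signal was 0.326 times that of WT for Ctsh and 0.343 times for Ctsc. Ctsl, a broad endopeptidase, was at 12.49 and 12.47 in PML KD EBs, against 13.51 and 13.49 in WT EBs (-1.02 ± 0.07, adjusted p = 6.24e-05). Lgmn, the asparaginyl endopeptidase legumain, was at 12.34 and 12.30 in PML KD EBs, against 13.37 and 13.30 in WT EBs (-1.02 ± 0.07, adjusted p = 5.95e-05). With Ctsc and Ctsh these are the 4 lysosomal genes lower by at least 2-fold, where 0.587% of all genes were. Ctsz, a carboxypeptidase, fell by 0.88 ± 0.08 on the log2 scale, with 12.09 and 11.98 in PML KD EBs, against 12.84 and 12.98 in WT EBs.

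The remaining proteases differed less. Ctsb, an abundant cysteine cathepsin, was at 11.01 and 11.02 in PML KD EBs, against 11.57 and 11.63 in WT EBs (-0.59 ± 0.07). Ctsd, the main aspartic protease of lysosomes, differed by -0.38 ± 0.07, and Ctsa, the protective protein that holds Neu1 and Glb1 in a complex, by -0.37 ± 0.07. The Ctsa call was not met in the authors' own gene-level log2 table (-0.115, adjusted p = 0.431). Tpp1, a tripeptidyl peptidase, was at 11.16 and 11.25 in PML KD EBs, against 11.20 and 11.26 in WT EBs, with overlapping arrays.

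Of the glycosidases, Neu1, the sialidase that trims glycans, was at 9.71 and 9.77 in PML KD EBs, against 10.48 and 10.49 in WT EBs (-0.75 ± 0.08, adjusted p = 0.000329). Hexa, a subunit of the hexosaminidase that degrades GM2 ganglioside, was at 11.61 and 11.53 in PML KD EBs, against 12.12 and 12.17 in WT EBs (-0.57 ± 0.08, adjusted p = 0.00121). Gla, the galactosidase that degrades globotriaosylceramide, went the other way, with 10.05 and 9.93 in PML KD EBs, against 9.44 and 9.52 in WT EBs (0.51 ± 0.10, adjusted p = 0.00521). Glb1, a galactosidase, Gusb, a glucuronidase, and Man2b1, a mannosidase, differed by -0.10, 0.23 and -0.07 and did not pass.

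In the lipid group 4 of 7 genes were higher and 1 was lower, where 16.8% of all genes were higher and 11.8% lower. Grn, progranulin, which is processed into granulins in lysosomes, was at 12.02 and 12.03 in PML KD EBs, against 11.58 and 11.68 in WT EBs (0.39 ± 0.07, adjusted p = 0.0056). Npc2, the soluble cholesterol carrier, was lower, with 10.84 and 10.77 in PML KD EBs, against 11.22 and 11.24 in WT EBs (-0.43 ± 0.07, adjusted p = 0.00271). Its partner Npc1, the membrane transporter that exports cholesterol, was at 11.65 and 11.78 in PML KD EBs, against 11.36 and 11.40 in WT EBs (0.34 ± 0.09, adjusted p = 0.0206). The 2 cholesterol handlers thus differed in opposite directions. Psap, the precursor of the saposins that present sphingolipids to enzymes, and Ppt1, a thioesterase that removes palmitate, differed by 0.28 ± 0.07 and 0.33 ± 0.10. Asah1, the acid ceramidase, and Lipa, the acid lipase, did not pass (-0.19 and -0.14). Under quantile normalization both passed as lower (-0.35 and -0.28, limma adjusted p = 0.00934 and 0.015), so the balance of this group depends on the scaling. The Npc1, Psap and Ppt1 calls were lost under quantile normalization and when single arrays were left out. Npc1 had an adjusted p of 0.125 without PML KD array 2, 0.0853 without WT array 1 and 0.0624 without WT array 2. Psap had 0.0571, 0.106, 0.0705 and 0.0704 without PML KD array 1, PML KD array 2, WT array 1 and WT array 2. Ppt1 had 0.147, 0.125 and 0.198 without PML KD array 1, PML KD array 2 and WT array 1, and 0.0514 without either WT day 0 array.

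Of the membrane proteins, Scarb2, the receptor that carries glucocerebrosidase to lysosomes, was at 10.93 and 10.87 in PML KD EBs, against 10.23 and 10.30 in WT EBs (0.63 ± 0.08, adjusted p = 0.000612). Laptm4a, a small transmembrane protein of late endosomes and lysosomes, was at 12.10 and 12.06 in PML KD EBs, against 11.56 and 11.56 in WT EBs (0.52 ± 0.08, adjusted p = 0.00169). Cd63, a tetraspanin of late endosomes, was at 10.58 and 10.46 in PML KD EBs, against 10.93 and 11.07 in WT EBs (-0.48 ± 0.09, adjusted p = 0.00502). The arrays of the groups did not overlap for any of these 3 genes. Lamp1, a heavily glycosylated membrane protein, differed by -0.28 ± 0.07 (adjusted p = 0.019), a call lost without PML KD array 1 (0.0844), without PML KD array 2 (0.0797) and without WT array 1 (0.0881). Its relative Lamp2, the calcium channel Mcoln1 and the proton pump accessory subunit Atp6ap1 differed by 0.03, -0.05 and 0.09 and did not pass. At day 4, 4 rises (Gla, Grn, Scarb2 and Laptm4a) and 11 falls (all but Ctsa and Lamp1) were met in every alternative analysis run. Quantile normalization gave 4 rises and 15 falls, and without PML KD array 2 or WT array 1 there were 4 rises and 12 falls.

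**Figure D2:**
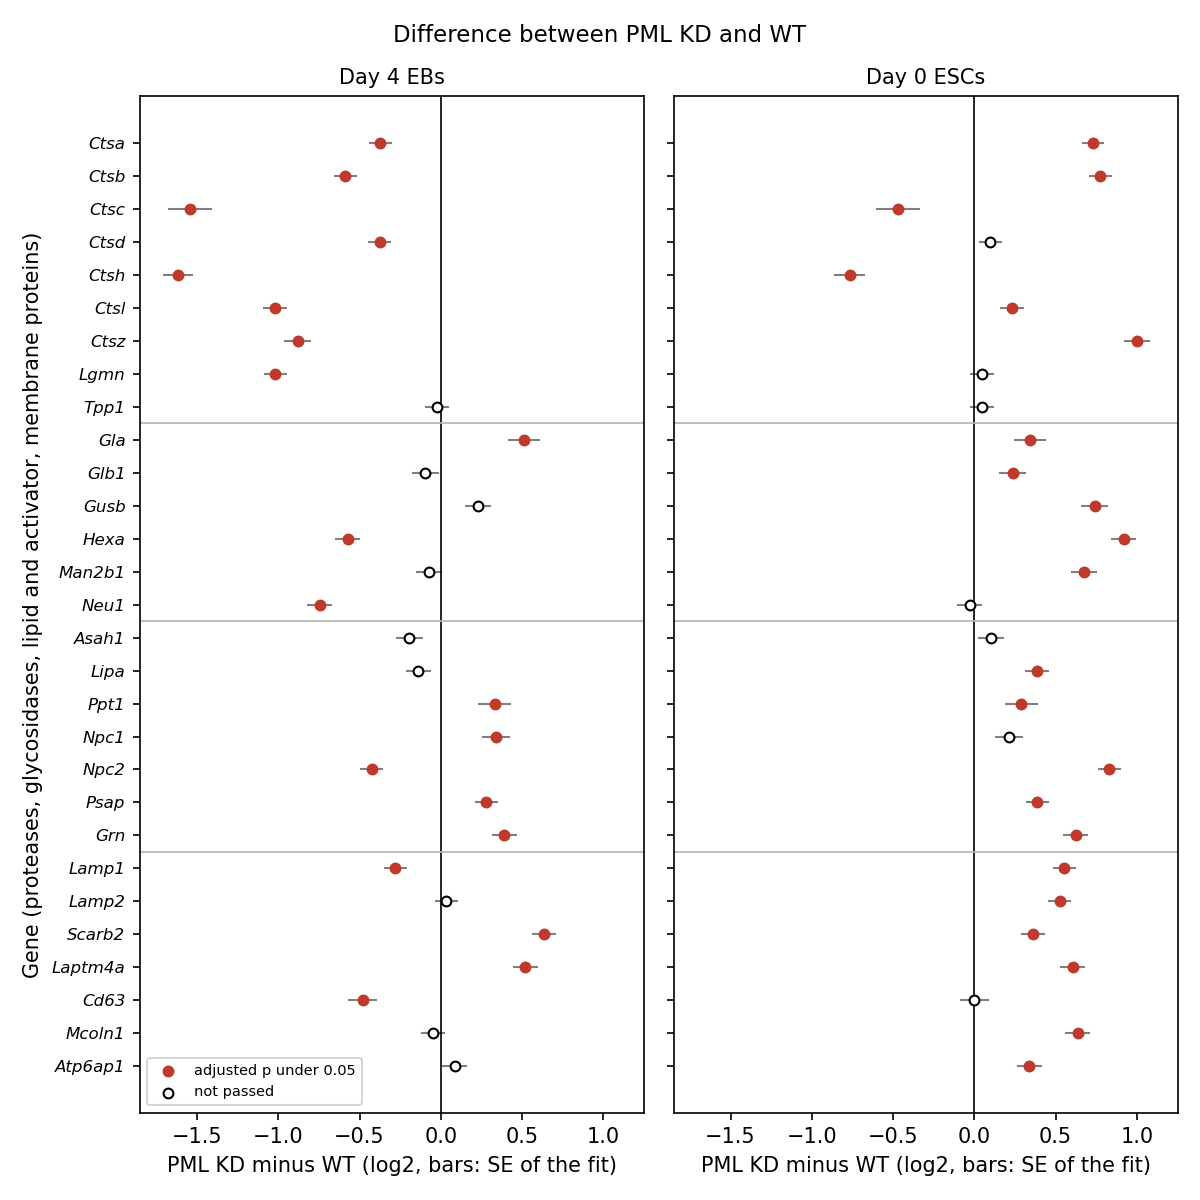
Difference PML KD minus WT (log2, horizontal axis) of each lysosomal gene in day 4 EBs (left) and day 0 ESCs (right), with bars for the SE of the fit and filled points for adjusted p under 0.05. At day 4 the proteases lie to the left, down to -1.62 for Ctsh, while at day 0 most genes of all roles lie to the right, up to 1.00 for Ctsz.

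Markers of the visceral endoderm moved with the proteases at day 4. The mean of 26 marker genes was 9.49 and 9.48 in PML KD EBs, against 10.93 and 10.91 in WT EBs, and 25 of the 26 fell while 0 rose (limma; at an unadjusted p under 0.05, 26 fell and 0 rose), with a median of -1.29. Afp, the alpha-fetoprotein gene, differed by -2.82 ± 0.08, and Apob, an apolipoprotein gene, differed by -2.65. Parietal endoderm genes were lower in 9 of 14 and higher in 2, among them Col4a1, a basement membrane collagen, at -1.65. The 2 higher ones were Krt7, a keratin, at 1.86 and Fst, the activin antagonist follistatin, at 0.70. Their part in the lysosomal differences was not tested. Macrophages, another cell type rich in cathepsins, left little signal: 6 of 14 marker genes were under the 25th percentile of signal on all arrays, and the mean was 6.37 and 6.44 in PML KD EBs, against 6.51 and 6.48 in WT EBs. None of the 14 macrophage genes passed at day 4 in the limma fit, where 28.6% of all genes did, 16.8% higher and 11.8% lower. At an unadjusted p under 0.05, 2 fell and 0 rose. A difference can be missed at signals this low, and a part of macrophages in the lysosomal differences was not tested.

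The day 0 comparison asked what PML depletion changes in undifferentiated ESCs. There the lysosomal genes were mostly higher in PML KD: 20 rose, 2 fell and 7 did not pass, where 52.3% of all genes tested passed, 27.5% higher and 24.9% lower. Their median was 0.36, against 0.09 over all genes and -0.25 over the brightest 20%. Both PML KD arrays lay above both WT arrays for 23 of the 29 genes and below them for 2, where 43.9% and 32.8% of all genes did. Off chromosomes 8 and 14, 16 of 24 rose and 2 fell. When arrays were shifted to a common median over all probe sets, 12 rose and 3 fell with a median of 0.14, and the median of all genes moved to -0.14. Quantile normalization gave 25 rises and 1 fall with a median of 0.56, against 0.02 over all genes.

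Ctsz had the largest rise of the proteases, with 11.28 and 11.31 in PML KD ESCs, against 10.33 and 10.25 in WT ESCs (1.00 ± 0.08, adjusted p = 3.65e-05), a 2.00-fold difference. Ctsb and Ctsa rose by 0.77 ± 0.07 and 0.73 ± 0.07. Ctsh and Ctsc were the 2 that fell: Ctsh was at 6.41 and 6.18 in PML KD ESCs, against 7.02 and 7.10 in WT ESCs (-0.77 ± 0.09, adjusted p = 0.000255). Ctsc was at 8.19 and 8.64 in PML KD ESCs, against 8.97 and 8.80 in WT ESCs (-0.47 ± 0.14, adjusted p = 0.0192), and its call was lost without PML KD array 1 (-0.25, adjusted p = 0.0879) or WT array 1 (-0.39, 0.0976). Ctsl differed by 0.23 ± 0.07 (adjusted p = 0.0277), which was lost without PML KD array 2 (0.115), WT array 1 (0.0994) or WT array 2 (0.0996). Ctsd, Lgmn and Tpp1 did not pass (0.10, 0.05 and 0.05).

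Of the 6 glycosidases 5 rose at day 0. Hexa was at 11.31 and 11.43 in PML KD ESCs, against 10.42 and 10.49 in WT ESCs (0.92 ± 0.08, adjusted p = 4.3e-05), the second largest difference of the 29 genes. Gusb rose by 0.74 ± 0.08 and Man2b1 by 0.68 ± 0.08. Gla (0.34, adjusted p = 0.0169) and Glb1 (0.24, 0.0419) did not hold in all alternatives. Both calls were lost with arrays shifted to a common median over genes (adjusted p = 0.0524 and 0.139) and in the authors' gene-level table (0.0503 and 0.125). They were also lost when single arrays were left out. The differences were then 0.23 and 0.16 without PML KD array 2, and 0.30 and 0.22 without WT array 1. Glb1 had 0.25 without WT array 2 and an unchanged 0.24 without either PML KD day 4 array. Neu1, with 8.45 and 8.60 in PML KD ESCs, against 8.56 and 8.54 in WT ESCs, did not pass.

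Of the lipid group, Npc2 was at 11.03 and 11.01 in PML KD ESCs, against 10.20 and 10.18 in WT ESCs (0.83 ± 0.07, adjusted p = 3.8e-05). Grn was at 12.60 and 12.68 in PML KD ESCs, against 11.99 and 12.04 in WT ESCs (0.62 ± 0.07, adjusted p = 0.000229). Both groups of arrays were well apart for these genes. Lipa rose by 0.38 ± 0.07, Psap by 0.39 ± 0.07 and Ppt1 by 0.29 ± 0.10. The Ppt1 call (adjusted p = 0.0393) was lost without PML KD array 2 (0.177), WT array 1 (0.172), WT array 2 (0.0654) or either PML KD day 4 array (0.0601). Npc1 and Asah1 differed by 0.21 and 0.10 and did not pass.

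Of the 7 membrane protein genes 6 rose at day 0. Mcoln1 was at 10.97 and 10.90 in PML KD ESCs, against 10.26 and 10.35 in WT ESCs (0.64 ± 0.08, adjusted p = 0.000221). Laptm4a rose by 0.61 ± 0.08, Lamp1 by 0.55 ± 0.07, Lamp2 by 0.52 ± 0.07, Scarb2 by 0.36 ± 0.08 and Atp6ap1 by 0.34 ± 0.08. The Atp6ap1 call was lost without WT array 1 (adjusted p = 0.0516). Cd63 was the exception, with 8.77 and 8.93 in PML KD ESCs, against 8.85 and 8.85 in WT ESCs. At day 0 visceral endoderm markers averaged 7.70 and 7.64 in PML KD ESCs, against 7.77 and 7.84 in WT ESCs. Of the 26, 5 were higher (Apob, Apoa2, Apoe, Trf and Slc39a5) and 8 lower, where 27.5% and 24.9% of all genes were. The 3 that passed with at least a 2-fold difference were all lower: Cubn (-1.68), Dab2 (-1.45) and Lrp2 (-1.03). Macrophage markers averaged 6.66 and 6.53 in PML KD ESCs, against 6.37 and 6.35 in WT ESCs, with 5 of 14 higher (Csf1r, C1qb, Tyrobp, Cx3cr1 and Fcer1g) and 1 lower (Spi1), but 0 higher and 1 lower under quantile normalization. Of the lysosomal calls at day 0, the rises of Ctsa, Ctsb, Ctsz, Gusb, Hexa, Man2b1, Npc2, Grn, Lamp1, Lamp2, Laptm4a and Mcoln1 and the fall of Ctsh were met in every alternative analysis run.

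The calls of both days were set side by side. Ctsa, Ctsb, Ctsl, Ctsz, Hexa, Npc2 and Lamp1 (7 genes) were lower in PML KD at day 4 and higher at day 0. Each of them also passed the test of the difference of changes given further on. That difference equals the day 4 difference less the day 0 difference, so passing it follows from how these genes were picked and adds no support. Gla, Ppt1, Psap, Grn, Scarb2 and Laptm4a (6 genes) were higher on both days, and Ctsc and Ctsh lower on both. In 7 genes (Glb1, Gusb, Man2b1, Lipa, Lamp2, Mcoln1 and Atp6ap1) PML KD was higher at day 0 with no call at day 4, and in 4 (Ctsd, Lgmn, Neu1 and Cd63) it was lower at day 4 with no call at day 0. Npc1 was higher at day 4 with no call at day 0, and Tpp1 and Asah1 passed on neither day. Some of these calls were not met in every alternative analysis. At day 4 they were those of Ctsa, Lamp1, Ppt1, Npc1 and Psap. At day 0 they were those of Ctsc, Ctsl, Gla, Glb1, Lipa, Ppt1, Psap, Scarb2 and Atp6ap1.

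**Figure D3:**
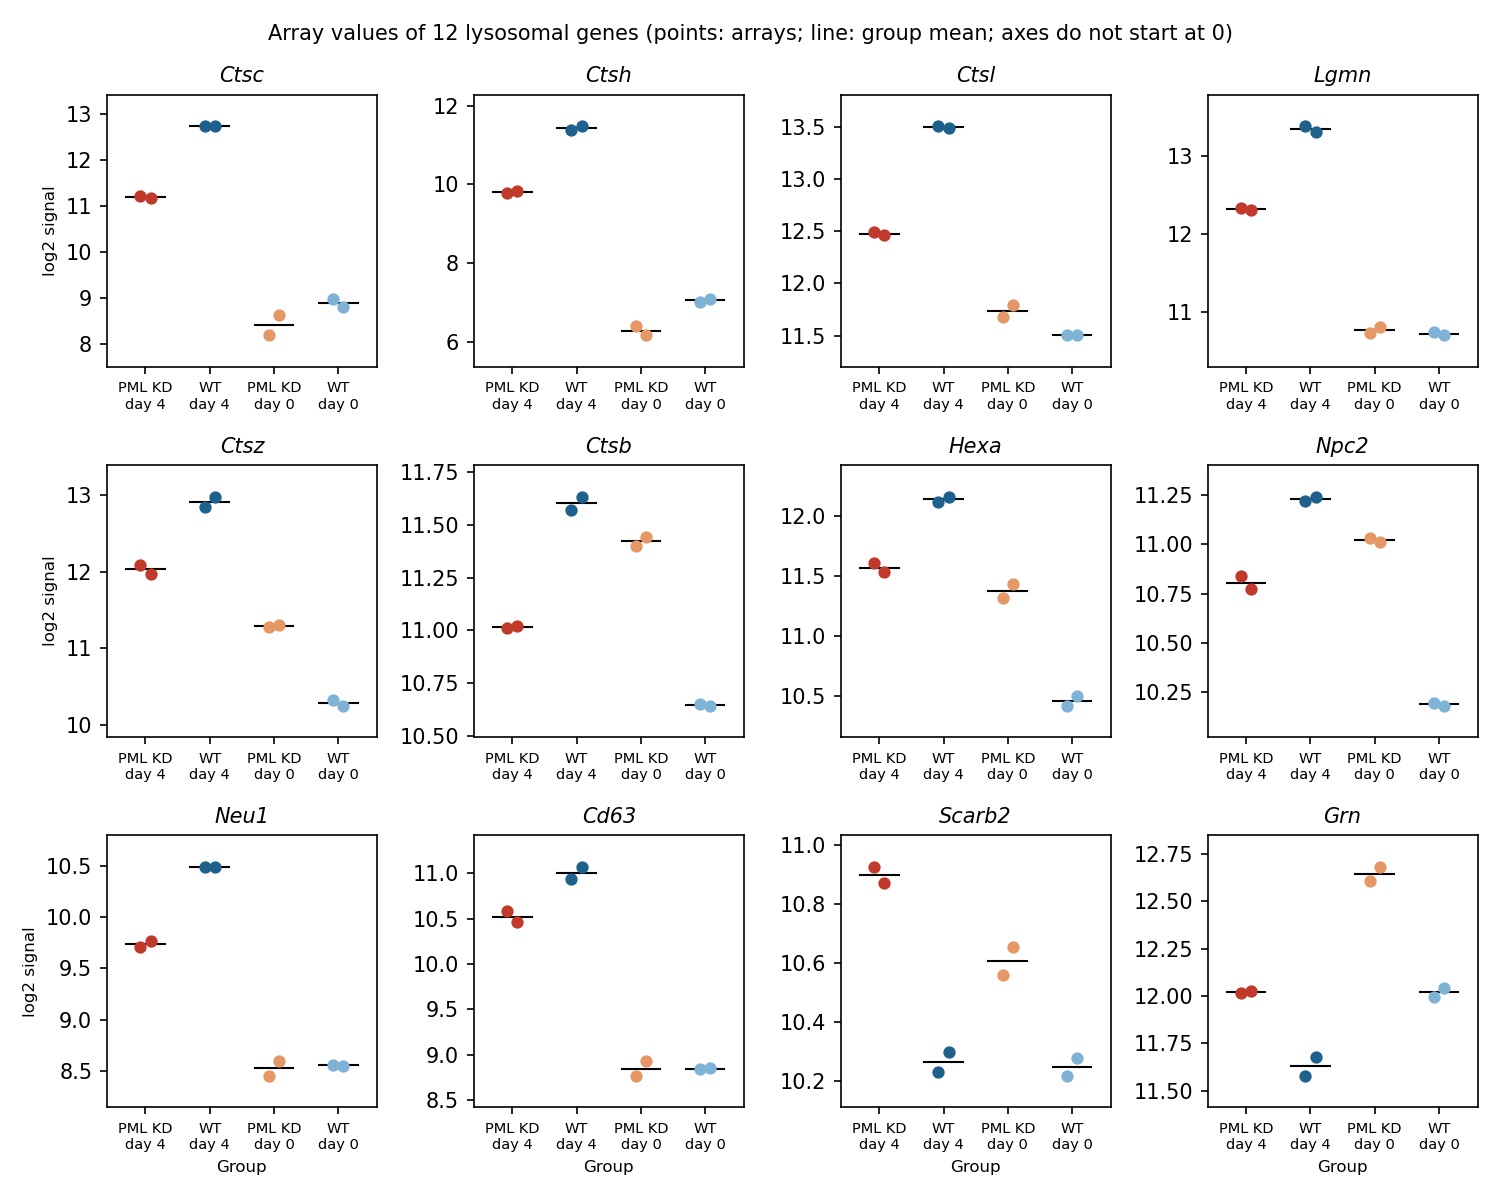
Log2 signal (vertical axes, which do not start at 0) of 12 lysosomal genes, with a point for each array and a line for the mean of its group of 2. Ctsc and Ctsh are lower in PML KD on both days, Ctsz, Ctsb, Hexa and Npc2 change side between the days, and Scarb2 and Grn are higher in PML KD on both.

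The comparison of days asked how lysosomal transcripts change during differentiation. In PML KD, 15 of the 29 genes rose by day 4 and 9 fell, where 49.6% of all genes tested passed, 24.3% higher and 25.2% lower, and 5 rose at least 2-fold (Ctsh, Ctsc, Cd63, Lgmn and Neu1), where 5.06% of all genes did. In WT, 22 rose and 3 fell, where 49.9% of all genes passed, 24.3% higher and 25.6% lower. At least 2-fold rises were seen in 10 genes in WT, where 3.17% of all genes had them: Ctsh, Ctsc, Ctsz, Lgmn, Cd63, Ctsl, Neu1, Hexa, Lipa and Npc2. The median change was 0.27 in PML KD and 0.76 in WT, against -0.06 and 0.06 over all genes. Over the 3988 brightest genes, from the 80th percentile of mean signal up, it was 0.13 in PML KD and -0.26 in WT. Of these bright genes 1719 rose and 1150 fell in PML KD, and 790 rose and 2130 fell in WT. The groups of a line share no arrays with those of the other line, so these changes are separate measurements. The PML KD changes rest on the day 0 arrays that stood apart: in this comparison bright genes of chromosomes 8 and 14 were shifted by -0.26 and -0.28 relative to other chromosomes, against 0.04 and -0.13 in WT. Of the 5 lysosomal genes on these chromosomes 4 fell in PML KD and 4 rose in WT (limma), and all 5 values were negative in PML KD and positive in WT. Of the other 24 genes 15 rose and 5 fell in PML KD, and 18 rose and 3 fell in WT. These 24 include Gla, Lamp2 and Atp6ap1 on chromosome X. Bright genes of that chromosome were shifted by 0.18 in PML KD and 0.05 in WT. Without PML KD day 4 array 1 or array 2 the falls in PML KD numbered 5, and without PML KD day 0 array 1 or array 2 they numbered 6.

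Ctsh changed most in both lines. In PML KD it was at 9.79 and 9.83 at day 4, against 6.41 and 6.18 at day 0, and in WT at 11.38 and 11.47, against 7.02 and 7.10, an 11.4-fold rise in PML KD and a 20.6-fold rise in WT. Ctsc rose 6.87-fold in PML KD and 14.4-fold in WT. Ctsz rose by 0.74 ± 0.08 on the log2 scale in PML KD and by 2.62 ± 0.08 in WT, and Ctsl by 0.74 ± 0.07 and 1.99 ± 0.07. Lgmn rose by 1.54 ± 0.07 in PML KD and by 2.61 ± 0.07 in WT. Cd63 rose by 1.67 ± 0.09 in PML KD and by 2.15 ± 0.09 in WT, Neu1 by 1.22 ± 0.08 and 1.93 ± 0.08, and Lipa by 0.79 ± 0.07 and 1.32 ± 0.07. Hexa differed by 0.20 ± 0.08 in PML KD (adjusted p = 0.0684) and rose by 1.69 ± 0.08 in WT.

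Falls in PML KD and rises in WT were called for 6 genes: Ctsa, Ctsb, Gusb, Man2b1, Npc2 and Mcoln1. Such opposite calls were not counted over all genes, of which 25.2% fell in PML KD and 24.3% rose in WT. Ctsb, Man2b1 and Mcoln1 are among the genes on chromosomes 8 and 14. Ctsb was at 11.01 and 11.02 at day 4 and at 11.40 and 11.44 at day 0 in PML KD, but at 11.57 and 11.63 at day 4 and 10.65 and 10.64 at day 0 in WT. Its fall in PML KD (-0.41 ± 0.07) and rise in WT (0.96 ± 0.07) were met in every alternative analysis run. The fall of Npc2 in PML KD (-0.22, adjusted p = 0.0307) was a rise short of the threshold in the authors' gene-level table (0.142, adjusted p = 0.197), and leaving out single arrays gave adjusted p up to 0.141 (without PML KD day 4 array 2; 0.0644 without array 1, 0.0884 and 0.0646 without the PML KD day 0 arrays, 0.0523 without either WT day 0 array). The falls of Gusb and Mcoln1 in PML KD were lost without PML KD day 4 array 1 (adjusted p = 0.0681 and 0.132), day 4 array 2 (0.128 and 0.0674) and day 0 array 1 (0.106 and 0.115), and that of Gusb without day 0 array 2 (0.0554). The rise of Gusb in WT was lost without WT day 4 array 1 (0.0588), day 4 array 2 (0.136) and day 0 array 1 (0.201), and that of Man2b1 was lost without WT day 4 array 2 (0.06) and day 0 array 1 (0.0635). In the authors' gene-level table the WT change of Gusb had the other sign (-0.123, adjusted p = 0.492), its fall in PML KD missed the threshold (-0.338, 0.0833), and the fall of Ctsa in PML KD was not met (-0.107, 0.369).

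Glb1 and Grn fell in both lines. Grn fell by 0.62 ± 0.07 in PML KD and by 0.39 ± 0.07 in WT, and Glb1 by 0.98 ± 0.08 and 0.65 ± 0.08. Ppt1 fell in WT (-0.29, adjusted p = 0.0394), but not without WT day 4 array 1 (0.225), WT day 0 array 1 (0.0616), WT day 0 array 2 (0.182) or either PML KD day 4 array (0.0609). In PML KD, Gla and Scarb2 rose by 0.37 ± 0.10 and 0.29 ± 0.08, Laptm4a by 0.27 ± 0.08, and Asah1 fell by 0.26 ± 0.08. These calls were lost in turn: without PML KD day 4 array 1 (Gla 0.0863, Scarb2 0.0742, Laptm4a 0.0908, Asah1 0.0819), day 4 array 2 (Laptm4a 0.0565, Asah1 0.107), day 0 array 1 (Gla 0.0776, Scarb2 0.0641) and day 0 array 2 (Laptm4a 0.0633, Asah1 0.127). In the authors' gene-level table Laptm4a fell in PML KD (-0.512, adjusted p = 0.00148), the opposite of the rise given here, and its WT change, a rise of 0.35 here, was -0.16 (adjusted p = 0.101). Ctsd, Npc1, Psap and Atp6ap1 rose in both lines, by 0.37, 0.94, 0.47 and 0.59 in PML KD and by 0.84, 0.82, 0.57 and 0.84 in WT. The rise of Ctsd in PML KD was not met in the authors' gene-level table (0.027, adjusted p = 0.788). Lamp1 and Lamp2 did not pass in PML KD (-0.10 and 0.09) and rose in WT (0.73 and 0.58), and Tpp1 passed in neither line. In PML KD 11 of the 15 rises and 4 of the 9 falls were met in every alternative analysis, the falls being Ctsb, Glb1, Man2b1 and Grn. In WT 19 of the 22 rises were, all but Gusb, Man2b1 and Laptm4a, and of the falls that of Glb1.

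The difference of these changes, PML KD less WT, was tested in the same fit. It was negative and past the threshold in 19 of 29 genes and positive in 0 (limma; at an unadjusted p under 0.05, 20 negative and 1 positive), where 50.6% of all genes tested passed, 25.4% negative and 25.2% positive. The median was -0.51, against -0.11 over all genes and 0.37 over the brightest 20%. The largest was that of Ctsz (-1.88 ± 0.12, adjusted p = 1.76e-05), and 8 genes were at or below -1, where 2.99% of all genes were. It was followed by Hexa (-1.49 ± 0.11), Ctsb (-1.36 ± 0.10), Npc2 (-1.26 ± 0.10) and Ctsl (-1.25 ± 0.10). All proteases but Tpp1, all glycosidases but Gla, and Lipa, Npc2, Lamp1, Lamp2, Cd63 and Mcoln1 passed. The call for Glb1 (-0.33, adjusted p = 0.0438) was lost without any array but PML KD day 0 array 1 (0.0525 to 0.133), and that for Cd63 (-0.48) without PML KD day 4 array 2 (0.0511). Besides Glb1 and Cd63, the calls for Ctsd, Gusb, Lipa and Lamp2 were lost in an alternative analysis. Scaled to a common median over all probe sets, 13 genes were negative and 3 positive, and the median of all genes moved to 0.23. Over the same interval the mean of the visceral endoderm markers went up to 9.49 and 9.48 at day 4 in PML KD, against 7.70 and 7.64 at day 0, and to 10.93 and 10.91 at day 4 in WT, against 7.77 and 7.84. Their part in the difference was not tested. The difference also rests on the PML KD day 0 arrays: Eif2s3y was at 9.99 and 9.86 in PML KD at day 4, against 5.20 and 4.95 at day 0, and bright genes of chromosomes 8 and 14 were shifted by -0.33 and -0.20 in it. Off these chromosomes 15 of 24 lysosomal genes were negative past the threshold. Differentiation and other differences between the PML KD cultures of the days cannot be told apart.

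**Figure D4:**
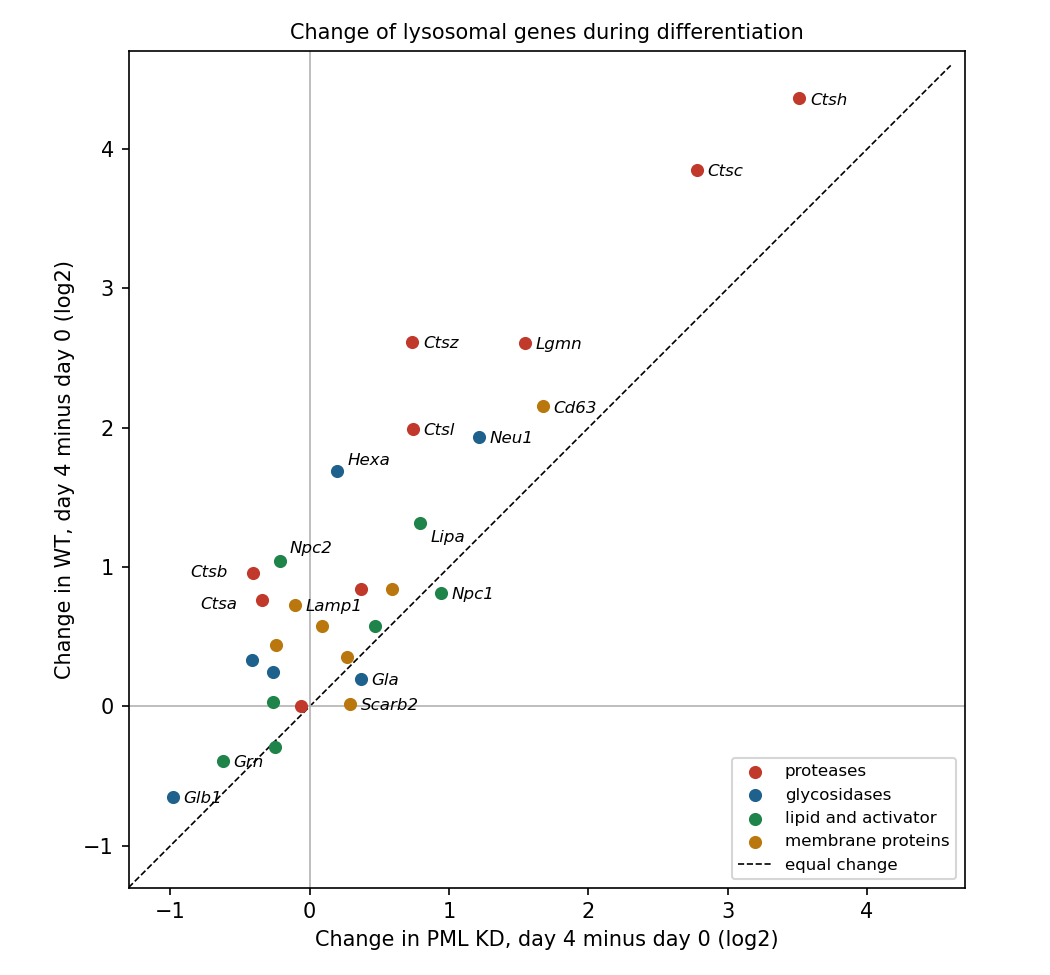
Change from day 0 to day 4 of the 29 lysosomal genes in PML KD (horizontal axis, log2) and WT (vertical axis, log2), coloured by role, with a dashed line for equal change. Of the 29 points, 25 lie above the line, Ctsh and Ctsc farthest to the upper right.

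Across the 29 genes the changes in the lines had a Pearson correlation of 0.895, against 0.407 over all genes tested, as a description over genes measured on the same arrays. It leans on the wide range set by Ctsh (3.51 in PML KD and 4.36 in WT) and Ctsc (2.78 and 3.85), and was not computed without them. For 6 genes the changes were called in opposite directions, a pattern that was not counted over all genes. The KD change was below the WT change in 25 of the 29 (86.2%), against 57.2% of all genes.

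Other genes of the lysosomal pathway were counted in the same fit. Of all genes tested, 16.8% were higher and 11.8% lower at day 4, and 27.5% and 24.9% at day 0. Over time 24.3% of all genes rose and 25.2% fell in PML KD, and 24.3% and 25.6% did in WT. At day 4, of 32 other lysosomal hydrolases and cofactors 9 were higher and 4 lower in PML KD (median 0.17), and quantile normalization gave 7 and 6. Smpdl3b, a lipid phosphodiesterase, rose by 1.41, and Smpd1, the acid sphingomyelinase, by 0.77, while the 4 that fell were Ctsk, Naaa, Manba and Aga, with differences from -0.59 for Ctsk to -0.27 for Aga. Genes outside the naming rule, given where a count was 5 or fewer, were named after their values were seen. Of 29 other membrane proteins and transporters 13 were higher and 4 lower (median 0.17), the 4 being the endolysosomal cation channels Tpcn1 and Tpcn2, the chloride transporter Clcn7 and the amino acid transporter Slc36a1. Hgsnat, which acetylates heparan sulfate, rose by 0.97 and Slc17a5, the sialic acid exporter, by 0.75. At day 0, 20 of the hydrolases rose and 1 fell (Ggh), and 19 of the membrane proteins rose and 2 fell (Slc17a5 and Slc29a3). These day 0 medians, 0.37 and 0.39, stood beside the 0.36 of the 29 genes. In PML KD over time 13 hydrolases rose and 7 fell, and 13 membrane proteins rose and 4 fell (Tpcn2, Laptm5, Clcn7 and Clcn6). In WT over time 18 hydrolases rose and 3 fell (Ggh, Manba and Ctsf), and 18 membrane proteins rose and 4 fell (Slc38a9, Slc29a3, Laptm5 and Clcn6).

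Genes that acidify, supply or control the lysosome were counted in 4 further lists. Beside them, 16.8% of all genes were higher and 11.8% lower at day 4, and 27.5% and 24.9% at day 0. V-ATPase subunits, which pump protons, were higher in 5 (Atp6v0e2, Atp6v0a4, Atp6v0a2, Atp6v0e and Tcirg1) and lower in 7 of 21 at day 4, and quantile normalization gave 4 and 10. At day 0 they were higher in 5 (Atp6v0e2, Atp6v0a4, Atp6v0b, Tcirg1 and Atp6ap2) and lower in 8. Atp6v0a4, a subunit of the pump, was higher on both days (1.07 and 1.00). Among 22 genes that sort enzymes to lysosomes, 5 were higher (Cln6, Sort1, Sorl1, Ap1m1 and Ap1m2) and 7 lower at day 4. At day 0, 5 were higher (Sorl1, Gnptab, Gnptg, Igf2r and Cln8) and 12 lower, against 7 and 8 under quantile normalization. Sort1, the sorting receptor sortilin, differed by 1.05 at day 4. Gnptab, the enzyme that makes the mannose 6-phosphate tag, was lower at day 4 (-0.47) and higher at day 0 (0.65). Of 29 autophagy and fusion genes, 4 were higher (Atg4b, Atg13, Stx17 and Ulk1) and 3 lower (Map1lc3b, Vamp8 and Atg16l1) at day 4. Both counts are smaller shares than those of all genes, and quantile normalization gave 3 and 9. At day 0, 1 was higher (Atg16l1) and 21 lower. Map1lc3b, which coats autophagosomes, was lower on both days, with -0.41 at day 4 and -0.93 at day 0.

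Among 22 genes of the TFEB family and of mTORC1 at the lysosome, 6 were higher and 7 lower at day 4. At day 0, 3 were higher (Tsc1, Rragb and Rptor) and 13 lower. Of all genes, 16.8% were higher and 11.8% lower at day 4, and 27.5% and 24.9% at day 0. Tfeb was at 8.64 and 8.67 in PML KD EBs, against 7.90 and 8.02 in WT EBs (0.70 ± 0.08, adjusted p = 0.000429), and at 8.68 and 8.60 in PML KD ESCs, against 9.0 and 9.03 in WT ESCs (-0.37 ± 0.08, adjusted p = 0.00404). The Tfeb transcript was thus higher at day 4, where 7 of the 29 lysosomal genes were higher and 13 lower. It was lower at day 0, where 20 of them were higher and 2 lower. Activity of the TFEB protein was not measured, and its part in the lysosomal differences was not tested. Tfe3 and Mitf were lower in PML KD ESCs (-0.75 and -0.85) and did not pass at day 4 (0.05 and 0.11). Tfec, the remaining family member, was lower at day 4 (-1.03). Mitf fell over time in both lines, with changes of -1.41 in PML KD and -2.36 in WT.

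**Figure D5:**
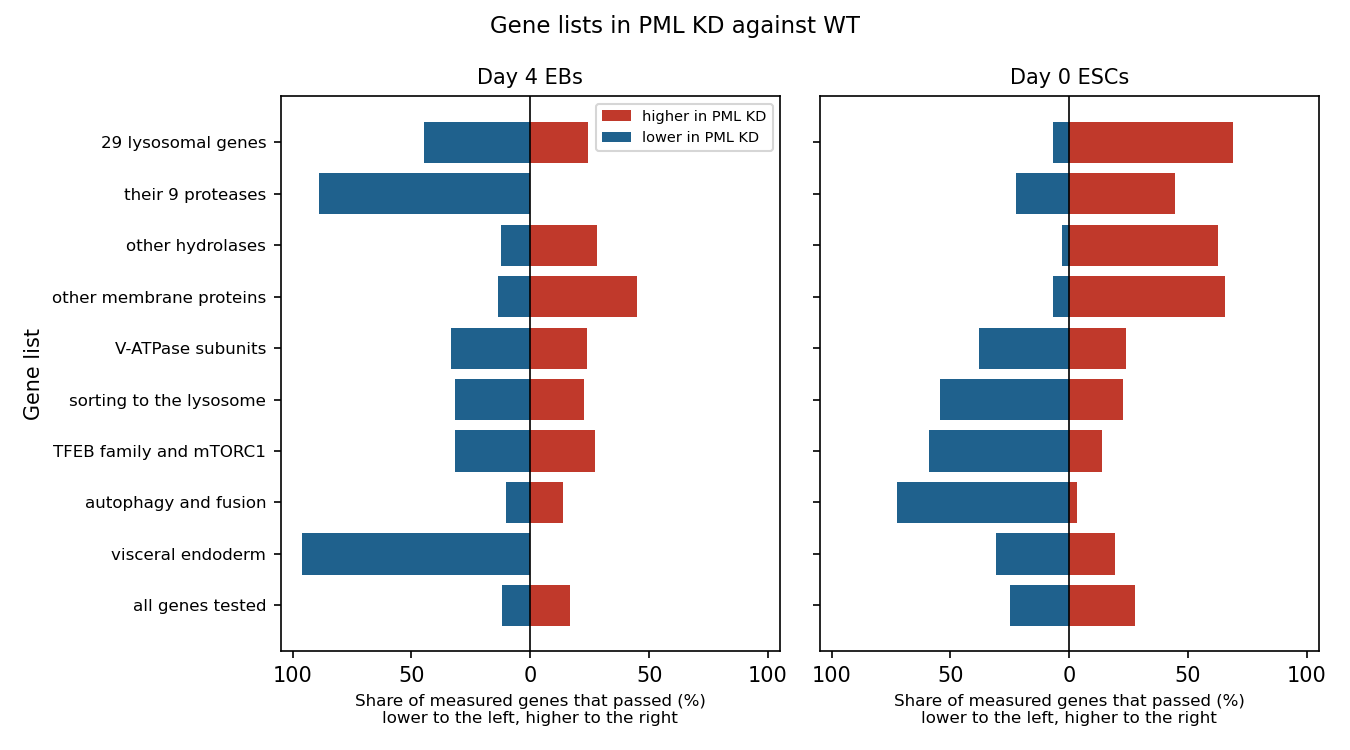
Share of measured genes that passed in PML KD minus WT at day 4 (left) and day 0 (right), in percent, with lower to the left of 0 and higher to the right, for the lysosomal genes, related lists, visceral endoderm markers and all genes tested. At day 4 the 9 proteases and the 26 visceral endoderm genes lie to the left, while the other hydrolases and membrane proteins lean right.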

How the data were processed

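The authors deposited an array table of linear intensity values, 1 per probe set and 35556 in all, for 8 arrays. The submitters' processing notes name the Transcriptome Analysis Console. How background was corrected and arrays were normalized is not given in the sources here. A deposited workbook holds, per the file headers, log2 values per gene from constitutive exons. Its array means were 8.29 to 8.30 at day 0 and 8.06 to 8.08 at day 4, so it served as an alternative only, quantile normalized for comparisons across days. Over 18102 genes it correlated at 0.885 to 0.927 with the array table.

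Deposited intensities were taken to log2 unscaled. Of the probe sets, 23410 are in the platform table, 21789 with 1 symbol and 1621 with several; those with 1 were kept, the brightest for the 999 genes with more, which left 19938 genes. The 8 arrays entered a single limma model (limma 3.58.1 under R 4.3.3, with lmFit, eBayes and a mean for each of 4 groups, leaving 4 degrees of freedom), and p-values were adjusted by Benjamini-Hochberg over all genes with a threshold of 0.05. The scripts were tested on simulated data. Precision is limited by the number of arrays. Array medians were 169.4 to 199.1 in linear signal. Same-numbered arrays did not deviate together (r from -0.082 to 0.085), so numbers were not taken as pairs.

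The 29 genes and all gene lists were chosen with earlier results of these data known. Named are the 29 genes, Pml, Tfeb, Tfe3, Mitf and up to 4 genes per further list with the smallest adjusted p at day 4. Alternatives were other scalings, the workbook, a signal filter, averaged probe sets, an intensity trend, the replicate block, fits of the compared arrays alone, and each array left out. Lists not described in the report moved at day 4 as follows: pluripotency 5 higher and 3 lower of 11, primitive streak and mesoderm 3 and 2 of 8, and trophoblast 7 and 1 of 9. Of all genes 16.8% were higher and 11.8% lower.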

Additional observations from a re-analysis of the deposited data

Results flagged for a closer look

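For 19 of the 29 genes the change from day 0 to day 4 differed between PML KD and WT in the limma fit. The same held for 50.6% of all genes tested, 25.4% with a negative difference and 25.2% with a positive one. At day 0 both PML KD arrays differ from every other array in the Y-linked transcripts Eif2s3y and Uty. Bright genes of chromosomes 8 and 14 are also shifted there. A response to differentiation and other differences between the PML KD cultures therefore cannot be told apart. The difference, PML KD change less WT change on the log2 scale, was negative in each. Among the proteases it was -1.88 for Ctsz, -1.36 for Ctsb, -1.25 for Ctsl, -1.1 for Ctsa, -1.07 for Ctsc and also -1.07 for Lgmn, -0.85 for Ctsh and -0.48 for Ctsd. Among the glycosidases it was -1.49 for Hexa, -0.75 for Man2b1, -0.72 for Neu1, -0.51 for Gusb and -0.33 for Glb1. The lipid genes Npc2 and Lipa had -1.26 and -0.52. The membrane protein genes Lamp1, Mcoln1, Lamp2 and Cd63 had -0.83, -0.68, -0.49 and -0.48. Adjusted p ran from 1.76e-05 (Ctsz) to 0.0438 (Glb1), with 2 arrays per group. Groups of 2 arrays are too small for a test of outlying arrays.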

How the results depend on the processing

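The number of lysosomal genes past the threshold stayed within 1.5 times the reported count in every alternative. Leaving out each array in turn gave 16 to 20 genes for PML KD against WT at day 4 (20 reported), 16 to 22 at day 0 (22), 17 to 25 for PML KD over time (24), 22 to 25 for WT over time (25) and 17 to 20 for the difference of changes (19). Among these, rises at day 4 numbered 4 to 7 (7 reported) and falls in PML KD over time 5 to 10 (9). The replicate block gave 20, 23, 25, 25 and 19 in the same order, and changed no call but to add 2. Calls that held in all alternatives were 11 of 13 falls and 4 of 7 rises at day 4, 12 of 20 rises and 1 of 2 falls at day 0, 11 of 15 rises and 4 of 9 falls in PML KD, 19 of 22 rises and 1 of 3 falls in WT, and 13 of 19 differences of changes. Quantile normalization split the day 4 calls into 4 higher and 15 lower. A common median over all probe sets, an alternative chosen after seeing the data, gave 17 rises and 5 falls in PML KD over time, and the workbook gave 11 and 10. In the workbook, signs turned over time for Laptm4a in PML KD (-0.512, past the threshold) and in WT (-0.16), Npc2 in PML KD (0.142) and Gusb in WT (-0.123). Under the common median over all probe sets they turned for Tpp1 in WT (-0.206) and for the difference of changes of Glb1 (0.009). Without both PML KD day 0 arrays, the day 4 and WT counts were 20 and 25. The cause of these shifts was not tested.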

Other observations

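Of the 200 measured genes outside the 29 that carry a lysosomal term in the deposited annotation, a list formed after the data were seen, 48 (24%) were higher and 34 (17.0%) lower in PML KD EBs than in WT EBs, with a median of 0.08, where 16.8% and 11.8% of all genes were. At day 0, 75 (37.5%) were higher and 51 (25.5%) lower in PML KD ESCs than in WT ESCs, with a median of 0.07, where 27.5% and 24.9% of all genes were. Over time 89 (44.5%) rose and 39 (19.5%) fell in PML KD, where 24.3% and 25.2% of all genes did. In WT 74 (37.0%) rose and 45 (22.5%) fell, where 24.3% and 25.6% of all genes did. The difference of these changes was positive for 58 (29%) and negative for 48 (24%), shares near the 25.2% and 25.4% of all genes.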
